A study of Arabidopsis thaliana with 9 samples.

Results

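The genes described here inactivate the plant hormone auxin or belong to the same enzyme family, and they were taken from a list of 10 Arabidopsis thaliana gene identifiers: GH3.1 (AT2G14960), GH3.2 (AT4G37390), GH3.3 (AT2G23170), GH3.5 (AT4G27260), DFL1 (AT5G54510, also called GH3.6), GH3.9 (AT2G47750), GH3.17 (AT1G28130), DFL2 (AT4G03400, also called GH3.10), JAR1 (AT2G46370, also called GH3.11) and DAO1 (AT1G14130). Of these, 9 had a row among the 16383 genes of the deposited table, and GH3.9 was not analysed here. The list goes by gene identity and holds no measured value, but it was made with earlier results of these data known. RNA was sequenced from the apical hook, the curved top that a seedling forms below its cotyledons in darkness, at 45 h of age and 22 °C. There were 3 libraries of the mutant tmk1-1 (called tmk1), 3 of the double mutant iaa32iaa34 and 3 of the wild type Col-0 (called WT). Each library came from about 50 hooks of about 2 mm, cut without cotyledons. The hook was taken whole, so cells of its inner and outer sides were mixed. Each mutant line is represented by a single genotype, and all 3 genotypes were grown in darkness alone, with no auxin treatment in the labels. The product of TMK1 is a transmembrane kinase known from auxin responses. IAA32 and IAA34 encode Aux/IAA proteins without the degron of typical members.

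GH3 proteins join a hormone to an amino acid. Several of them attach aspartate or glutamate to the auxin indole-3-acetic acid (IAA), which takes it out of the active pool, and many of their genes are themselves induced by auxin, so that the family is known as a negative feedback on auxin. JAR1 acts on another hormone, since it joins jasmonic acid to isoleucine and so makes the active jasmonate. DAO1 is a dioxygenase known from the oxidative inactivation of IAA. In the apical hook an auxin maximum on the inner side is known to hold back growth there.

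The promoters of auxin-induced GH3 genes are known for the auxin response element TGTCTC, which auxin response factors bind. The 250 bases before the annotated gene start, read on the strand of the gene from the RefSeq TAIR10.1 reference, were searched on both strands for TGTCTC, for the related TGTCGG and for the G-box motif with the letters CACGTG. The element TGTCTC was found in 3 of the 9 measured genes, GH3.2, GH3.3 and GH3.5, and in 10.6% of 15929 measured protein-coding genes with such a window. The G-box was found in GH3.2 alone of the 9, against 7.5% of all windows, and TGTCGG in none of them, against 4.8%. No match says only that these letters are absent from this window. The 3 windows that hold TGTCTC are shown as the only matches to this element among the 9 genes; capitals mark the motifs, and each window ends at the base before the gene start.
GH3.2: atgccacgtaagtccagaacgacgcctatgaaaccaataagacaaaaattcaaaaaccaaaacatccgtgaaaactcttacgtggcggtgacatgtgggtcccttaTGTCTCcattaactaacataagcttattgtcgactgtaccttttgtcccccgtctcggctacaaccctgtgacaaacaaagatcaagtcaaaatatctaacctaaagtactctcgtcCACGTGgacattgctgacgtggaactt
GH3.3: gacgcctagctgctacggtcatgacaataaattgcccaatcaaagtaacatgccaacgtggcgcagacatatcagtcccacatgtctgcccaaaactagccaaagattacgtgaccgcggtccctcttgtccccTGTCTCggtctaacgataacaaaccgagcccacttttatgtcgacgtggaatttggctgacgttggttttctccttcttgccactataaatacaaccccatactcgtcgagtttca
GH3.5: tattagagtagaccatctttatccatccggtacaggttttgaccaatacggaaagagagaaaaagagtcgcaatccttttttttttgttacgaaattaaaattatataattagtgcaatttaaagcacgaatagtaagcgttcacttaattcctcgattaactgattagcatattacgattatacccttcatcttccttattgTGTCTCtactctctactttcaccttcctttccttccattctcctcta
GH3.2 lies on chromosome 4, plus strand, GH3.3 on chromosome 2, minus strand, and GH3.5 on chromosome 4, plus strand. The element began 144 bases before the gene start in GH3.2, 116 in GH3.3 and 47 in GH3.5, on the strand of the gene in each, and the G-box of GH3.2 began at 27 bases.

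Library totals were 10077093 to 13601488 reads, as given by the steps between CPM values (read counts scaled to the total of each library). TMK1 stood at 26.8 to 45.4 CPM in tmk1, against 387 to 469 CPM in WT, and IAA32 at 6.44 to 10.5 CPM in iaa32iaa34, against 43.0 to 55.3 CPM in WT. In tmk1 IAA32 was also below WT, at 22.3 to 28.5 CPM, where 18.9% of all genes lay below WT without overlap. IAA34 was not analysed here. All 6 marker genes fixed for the hook were present, with summed levels of 2847 to 3303 CPM in tmk1, 2776 to 3829 CPM in iaa32iaa34 and 3352 to 3769 CPM in WT. Of 23 photosynthesis genes taken as markers of cotyledon tissue 22 were measured, and none of them was at 0 in any library. Their summed levels were 29030, 21909 and 24562 CPM in tmk1, 27125, 11415 and 23990 CPM in iaa32iaa34, and 13492, 11926 and 6608 CPM in WT, replicates in order of number. The photosynthesis sum of iaa32iaa34 replicate 2 thus lay within the WT range, and this library also stood among the WT libraries on the first principal component, at -14.7 against -52.9 to -14.5 in WT. Summed levels of 7 measured endodermis genes of the Casparian strip, of 8 listed, were 53.2, 232 and 165 CPM in tmk1, 85.7, 377 and 410 CPM in iaa32iaa34, and 58.7, 185 and 528 CPM in WT. Of 5 shoot meristem genes 2 were measured, with sums of 117 to 172 CPM in tmk1, 159 to 167 CPM in iaa32iaa34 and 139 to 179 CPM in WT. In such bulk samples fewer cells of a type and less RNA per cell cannot be told apart.

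Per length of transcript, genes of 3 IAA-conjugating enzymes stood highest among the 9 in dark-grown hooks. GH3.5, known to act on IAA and on salicylic acid, had the highest mean level per kb of annotated exon in each genotype, at 65.3 ± 7.0 CPM per kb in tmk1, 98.1 ± 16.1 in iaa32iaa34 and 72.5 ± 3.8 in WT (SD, n = 3 each). DFL1, named for the dwarf growth that its overexpression causes in light, stood at 59.7 ± 7.4, 73.3 ± 23.1 and 46.2 ± 2.5 CPM per kb in the same order of genotypes. GH3.17, known for its preference for glutamate, stood at 41.1 ± 3.1, 47.7 ± 20.1 and 24.99 ± 8.2 CPM per kb. In WT the ranges of these 3 genes did not overlap, at 69.0 to 76.6, 43.6 to 48.7 and 19.2 to 34.4 CPM per kb. In tmk1 the ranges of GH3.5 (59.1 to 72.8 CPM per kb) and DFL1 (55.0 to 68.2) overlapped, and GH3.17 (38.1 to 44.3) lay below both. In iaa32iaa34 each neighbouring pair of the 3 overlapped.

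The other genes were lower per length. JAR1 stood at 18.5 ± 1.7 CPM per kb in tmk1, 20.9 ± 1.8 in iaa32iaa34 and 19.2 ± 0.79 in WT, and in WT its range of 18.5 to 20.0 overlapped that of GH3.17. DFL2, named like DFL1 for dwarf growth in light, stood at 10.5 ± 1.0, 10.9 ± 1.5 and 16.5 ± 0.93 CPM per kb in the same order. DAO1 stood at 4.70 ± 0.60, 5.98 ± 0.41 and 6.01 ± 0.34 CPM per kb. GH3.3, an auxin-induced member, stood at 7.04 ± 2.0, 9.53 ± 2.9 and 4.71 ± 1.3 CPM per kb, with a range in each genotype that overlapped that of DAO1. GH3.2 and GH3.1, of the same auxin-induced subfamily, stood at 3.28 ± 1.9 and 1.82 ± 0.60 CPM per kb in WT. Per kb of coding sequence DFL2 came before JAR1 in WT, at 32.7 and 29.6 CPM per kb, so the order of these neighbours depends on the length used. The annotated exons of DFL2 cover 3518 bases and its coding sequence 1776.

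**Figure D1:**
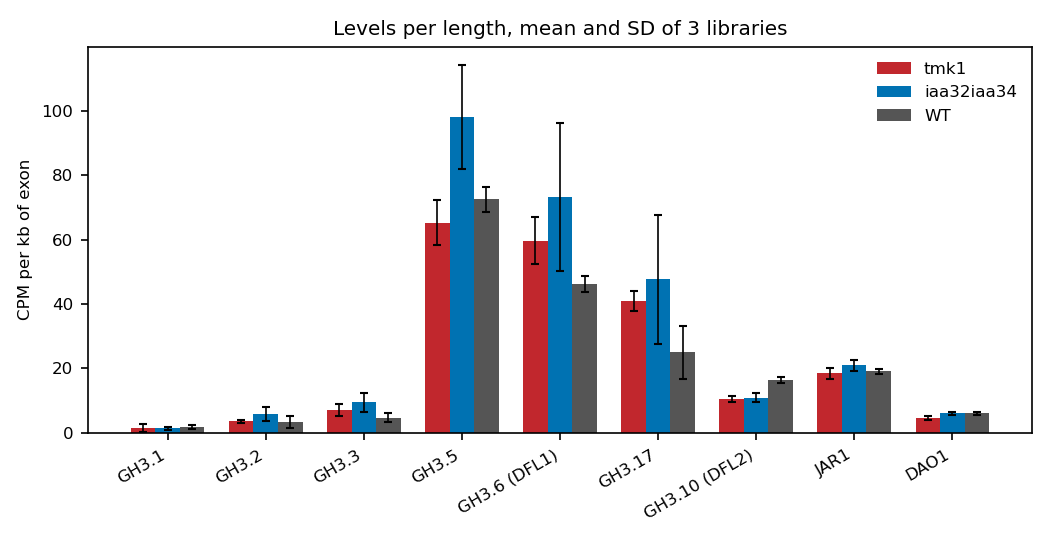
Mean level per kb of annotated exon (bars, CPM per kb) with the SD of 3 libraries (error bars) for the 9 measured genes in tmk1, iaa32iaa34 and WT. GH3.5, DFL1 and GH3.17 stand highest, with GH3.5 at 98.1 CPM per kb in iaa32iaa34, and GH3.1, at 1.82 CPM per kb in WT, lowest.

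Summed per length over the 6 measured IAA-type genes (GH3.1, GH3.2, GH3.3, GH3.5, DFL1 and GH3.17), the level was 165, 200 and 169 CPM per kb in tmk1, 243, 194 and 270 CPM per kb in iaa32iaa34, and 148, 159 and 154 CPM per kb in WT. All 6 mutant libraries therefore lay above all 3 WT libraries. The make-up of this sum also differed between libraries. GH3.5 supplied 35.8 to 37.6% of it in tmk1, 32.9 to 53.4% in iaa32iaa34 and 43.5 to 49.7% in WT, and GH3.17 supplied 22.2 to 24.1%, 12.7 to 25% and 13.0 to 21.7%. No test was run on these sums, and both mutants are set against the same 3 WT libraries.

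The first question was which of these genes differed in tmk1 hooks. GH3.17 and DFL1 lay above WT and DFL2 and DAO1 below WT in every tmk1 library, and the other 5 genes overlapped. No member passed the threshold in tmk1 against WT (limma over all 16383 genes, Benjamini-Hochberg adjusted p under 0.05), where 0.317% of all genes did. At an unadjusted p under 0.05 there were 2 of 9 members, GH3.17 and DFL2, against 21.4% of all genes. Groups did not overlap for 4 of 9, against 30.4% of all genes, with 2 higher against 11.5% and 2 lower against 18.9%. Of the 9, 4 had a positive log2 fold change and 5 a negative one, of which JAR1 turned positive with median-of-ratios or TMM scaling. Over all genes 58.0% were negative. The median of the 9 was -0.05, that of JAR1, against -0.063 over all genes. With 3 libraries against 3, an exact permutation test of a single gene cannot go below p = 0.1, so none is given.

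DFL2 had the smallest p of the members. It had 39.0, 32.7 and 38.8 CPM in tmk1, 34.8, 44.3 and 36.2 CPM in iaa32iaa34, and 57.4, 61.6 and 55.2 CPM in WT. All 6 mutant libraries lay below all 3 WT libraries, by at least the gap between 44.3 and 55.2 CPM. Both mutants are set against the same 3 WT libraries here, and the share of all genes with this pattern was not computed. The means were 36.8 ± 3.6 CPM in tmk1 and 58.1 ± 3.3 CPM in WT, a ratio of 0.63. The fitted log2 fold change was -0.65 ± 0.14 (SE, 95% interval -0.95 to -0.34), which did not pass (limma, adjusted p = 0.0697). Over 19 alternative settings its adjusted p was 0.0285 to 0.242 and its log2 fold change -0.69 to -0.56. It passed under 3 of them in limma, namely without iaa32iaa34 replicate 2 (adjusted p = 0.0285), with only tmk1 and WT in the fit (adjusted p = 0.0375), and with only those genotypes plus a replicate block (adjusted p = 0.0299). These fits kept every tmk1 and WT value and called 4.3%, 3.78% and 8.68% of all genes.

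GH3.17 had 104, 121 and 112 CPM in tmk1, 167, 67.3 and 158 CPM in iaa32iaa34, and 52.7, 94.0 and 58.5 CPM in WT. All 3 tmk1 libraries lay above all 3 WT libraries, while iaa32iaa34 replicate 2 lay inside the WT range. The mean of 112 ± 8.5 CPM in tmk1 was 1.64 times that of 68.4 ± 22.4 CPM in WT (SD, n = 3 each). Its fitted log2 fold change was 0.75 ± 0.32 (SE), with an adjusted p = 0.214 in limma. It passed under 1 of 19 alternatives, with only tmk1 and WT in the fit plus a replicate block (limma, adjusted p = 0.0287, in a range over alternatives of 0.0287 to 0.456). With the block in the fit of all 9 libraries, where 1.97% of all genes passed, no member did.

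DFL1 had 127, 158 and 130 CPM in tmk1, 191, 109 and 209 CPM in iaa32iaa34, and 101, 107 and 113 CPM in WT. It too lay above WT in all 3 tmk1 libraries, and its log2 fold change of 0.36 ± 0.22 did not pass (limma, adjusted p = 0.371). For both GH3.17 and DFL1 the iaa32iaa34 library inside the WT range was replicate 2, the library whose photosynthesis sum, 11415 CPM, was also inside the WT range of 6608 to 13492 CPM. The photosynthesis sums of all tmk1 libraries, 21909 to 29030 CPM, lay above those of WT, as did GH3.17 and DFL1. Within genotypes the order of the sum was not shared throughout. In tmk1 replicate 1 had the highest sum, 29030 CPM, and the lowest GH3.17 and DFL1, at 104 and 127 CPM. In WT replicate 1 also had the highest sum, 13492 CPM, and the lowest of both genes, at 52.7 and 101 CPM. In iaa32iaa34 replicate 2 was lowest in the sum and in both genes. CAB1 and RBCS1A were the largest parts of the sum in every library, and the photosynthesis genes differed in their order. CAB1 was highest in replicate 1 of tmk1 and of WT, at 8293 and 4027 CPM. LHCB3 was highest in replicate 2 of both, at 1148 and 451 CPM, as was GH3.17. The order of the sum is therefore not that of each photosynthesis gene. All 22 measured photosynthesis genes had positive log2 fold changes in tmk1 and in iaa32iaa34, and none passed. Their part in the values of GH3.17 and DFL1 was not tested.

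**Figure D2:**
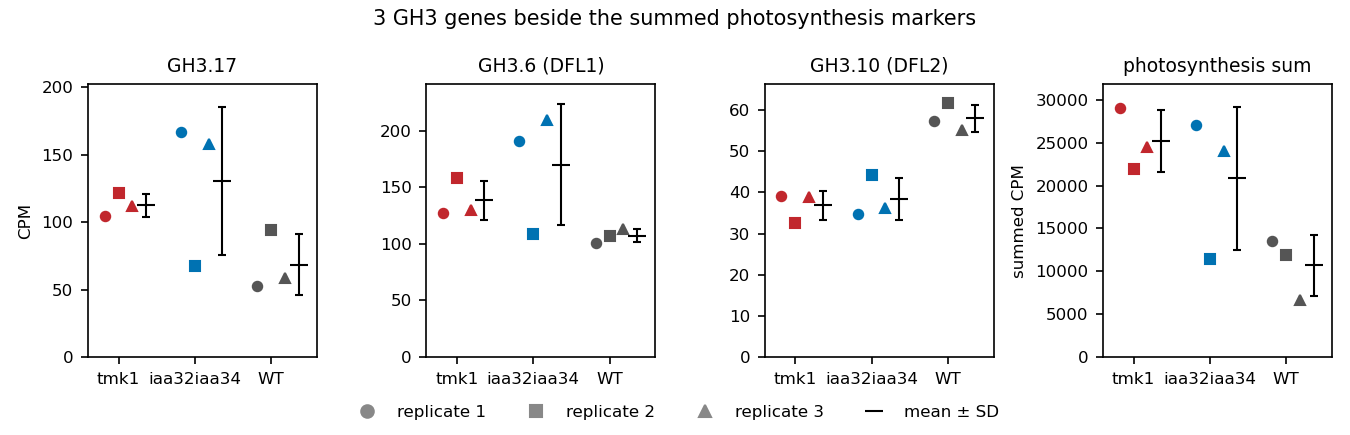
Levels of GH3.17, DFL1 and DFL2 (CPM) and the summed level of 22 photosynthesis genes (CPM, on its own axis) in each library (symbols by replicate number) with mean ± SD of 3 libraries. In iaa32iaa34 replicate 2 (square) GH3.17 at 67.3 CPM, DFL1 at 109 CPM and the photosynthesis sum at 11415 CPM lie within the WT range, and DFL2 at 44.3 CPM lies below it.

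DAO1 had 6.26, 8.04 and 7.65 CPM in tmk1, 8.80, 10.02 and 9.08 CPM in iaa32iaa34, and 8.73, 9.66 and 9.64 CPM in WT. The tmk1 libraries lay below all libraries of both other genotypes, although a level of 7.31 ± 0.94 CPM in tmk1 rests on few reads, with 72 to 119 reads per library over all 9. Set against WT, DAO1 in tmk1 differed by -0.32 ± 0.15 on the log2 scale (limma, adjusted p = 0.241). Set against iaa32iaa34 it differed by -0.31 ± 0.15 (limma, adjusted p = 0.61).

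GH3.5 in tmk1 overlapped WT, at 139, 172 and 150 CPM against 170, 163 and 181 CPM, and its log2 difference was -0.16 ± 0.15 (limma, adjusted p = 0.592). GH3.3 had 18.7, 15.7 and 10.4 CPM in tmk1, against 13.1, 8.36 and 8.45 CPM in WT, and its log2 fold change was 0.53 ± 0.28 (limma, adjusted p = 0.301). GH3.2 had 7.91, 8.53 and 6.32 CPM in tmk1, against 11.8, 5.36 and 4.18 CPM in WT. The tmk1 values of GH3.2 and GH3.3 overlapped those of WT, and both were lowest in replicate 3 of tmk1 and of iaa32iaa34. GH3.1, the lowest of the 9 genes, had 1.13, 6.25 and 2.50 CPM in tmk1, against 3.09, 5.60 and 3.5 CPM in WT, with 13 reads in its lowest library. JAR1 had 49.6, 46.3 and 55.4 CPM in tmk1, 53.4, 62.5 and 54.8 CPM in iaa32iaa34, and 50.4, 51.5 and 54.5 CPM in WT. The 3 genotypes overlapped for JAR1, with 95% intervals of the log2 fold change against WT of -0.33 to 0.23 in tmk1 and -0.15 to 0.40 in iaa32iaa34.

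**Figure D3:**
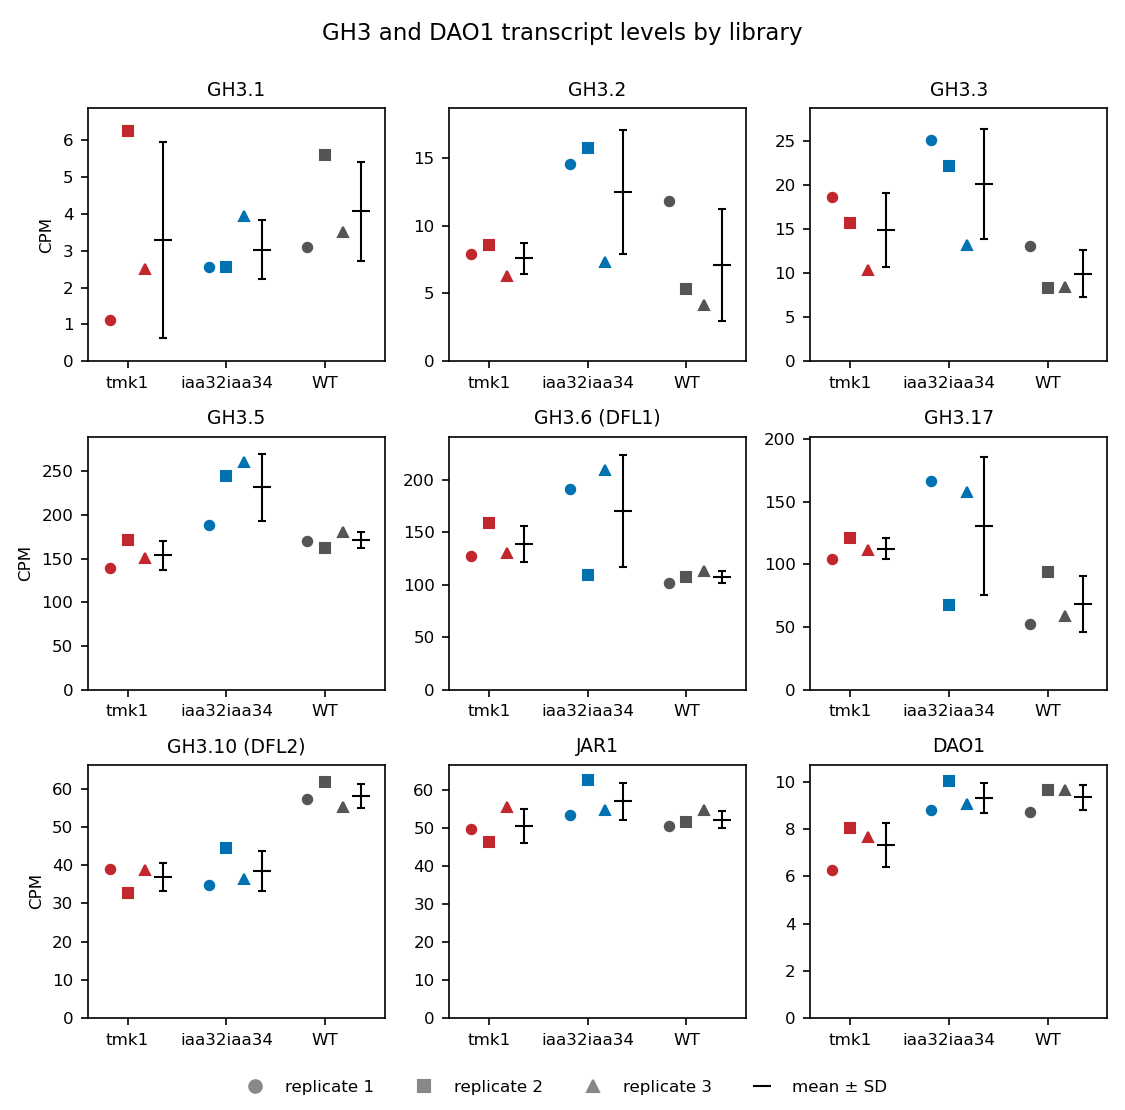
Level of each measured gene (CPM, each axis from 0) in the 3 libraries of tmk1, iaa32iaa34 and WT, with symbols by replicate number and mean ± SD beside them. DFL2 lies below WT in all 6 mutant libraries, at 32.7 to 44.3 CPM against 55.2 to 61.6 CPM, and GH3.5 lies above WT in the 3 iaa32iaa34 libraries.

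The second question was which of the genes differed in hooks of the double mutant iaa32iaa34. GH3.3 and GH3.5 lay above WT and DFL2 below WT in every iaa32iaa34 library, and DFL1 and GH3.17 lay above WT in 2 of 3. Again no member passed against WT (limma, adjusted p under 0.05), where 0.153% of all genes did. At an unadjusted p under 0.05 there were 6 of 9, GH3.2, GH3.3, GH3.5, DFL1 and GH3.17 with positive and DFL2 with a negative log2 fold change, against 16.6% of all genes. The groups did not overlap for 3 of 9, against 21.1% of all genes, with GH3.3 and GH3.5 higher against 6.54% and DFL2 lower against 14.6%. The median log2 fold change of the 9 was 0.42, against -0.058 over all genes. The smallest adjusted p was 0.136, for DFL2 in limma.

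GH3.5 had 189, 245 and 261 CPM in iaa32iaa34, against 170, 163 and 181 CPM in WT. Its log2 fold change was 0.42 ± 0.15 (SE, 95% interval 0.08 to 0.76; limma, adjusted p = 0.231), and the ratio of the means of 231 ± 37.8 CPM and 171 ± 9.1 CPM was 1.35. The endodermis sums of the same libraries were 85.7, 377 and 410 CPM in iaa32iaa34, against 58.7, 185 and 528 CPM in WT, and their part in this result was not tested. GH3.3 had 25.2, 22.2 and 13.2 CPM in iaa32iaa34, against 13.1, 8.36 and 8.45 CPM in WT, so that the groups were parted only by the gap between 13.2 and 13.1 CPM. Its log2 fold change was 0.93 ± 0.28 (limma, adjusted p = 0.178), with a ratio of means of 2.02. GH3.2 had 14.5, 15.7 and 7.28 CPM in iaa32iaa34 and overlapped WT, and its log2 difference was 0.78 ± 0.35 (limma, adjusted p = 0.297). These 3 genes are those with TGTCTC in the windows printed here, while DFL1 and GH3.17, which also had positive log2 fold changes at an unadjusted p under 0.05, had none of the 3 motifs. A match is a description.

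DFL1 and GH3.17 in iaa32iaa34 depended on 1 library. With all libraries their log2 fold changes were 0.61 ± 0.22 and 0.86 ± 0.32 (limma, adjusted p = 0.232 and 0.24). Without iaa32iaa34 replicate 2 they were 0.90 ± 0.15 and 1.28 ± 0.23, and both passed (limma, adjusted p = 0.0183 and 0.0205). DFL2 also passed in that fit, at -0.69 ± 0.14 (limma, adjusted p = 0.0307), against -0.59 ± 0.14 (limma, adjusted p = 0.136) with all libraries. In that fit 3.94% of all genes passed. Over 18 alternatives the adjusted p was 0.0183 to 0.538 for DFL1, 0.0205 to 0.559 for GH3.17 and 0.0307 to 0.406 for DFL2, and each passed in limma under that 1 alternative only. DAO1, JAR1 and GH3.1 had intervals that included 0, with log2 fold changes of -0.01 ± 0.15, 0.12 ± 0.12 and -0.32 ± 0.39 (SE).

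**Figure D4:**
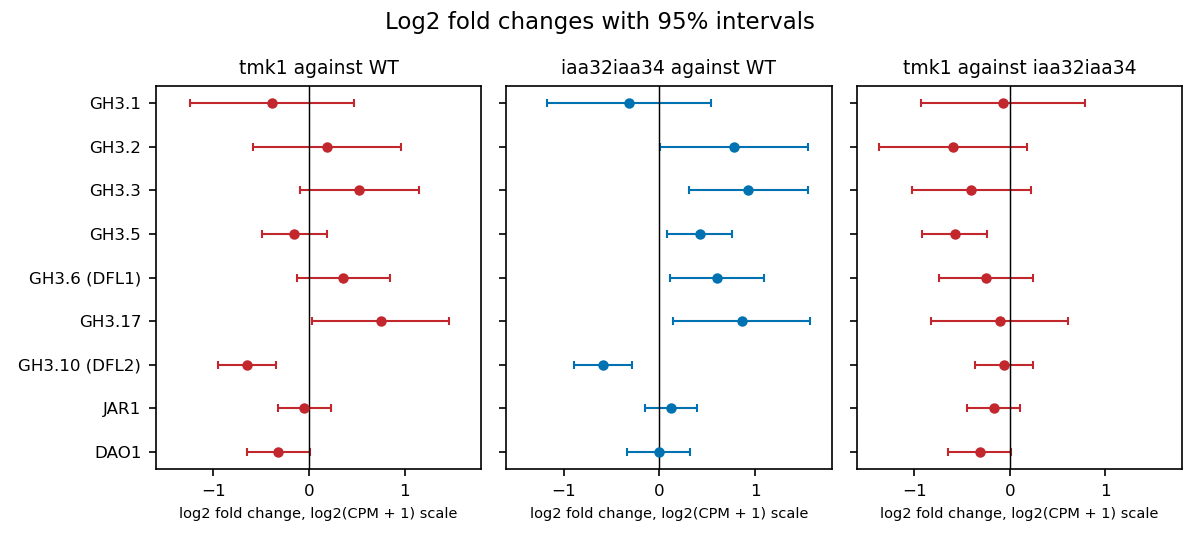
Log2 fold change on the log2(CPM + 1) scale (points) with its 95% interval (bars) for the 9 genes in each mutant against WT and in tmk1 against iaa32iaa34. DFL2 stands at -0.65 and -0.59 in the comparisons with WT and at -0.06 between the mutants, and GH3.5 at -0.58 between the mutants.

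The comparisons above share their WT libraries, so their values are set side by side only. The difference between the mutants was tested directly. No member passed in tmk1 against iaa32iaa34 (limma, adjusted p under 0.05), where 0.0549% of all genes did, and 1 of 9 had an unadjusted p under 0.05, against 8.12% of all genes. All 9 members had a negative log2 fold change, that is, a lower fitted level in tmk1, with a median of -0.24 against 0.013 over all genes, of which 47.8% were negative. The signs of GH3.1, GH3.17 and DFL2 turned when tmk1 replicate 1 (GH3.1), tmk1 replicate 2 (DFL2) or a single iaa32iaa34 library (all 3 genes) was left out. GH3.5 had the smallest p, with 139, 172 and 150 CPM in tmk1, against 189, 245 and 261 CPM in iaa32iaa34. Its groups did not overlap, and its log2 fold change was -0.58 ± 0.15 (SE, 95% interval -0.92 to -0.24; limma, adjusted p = 0.38). Along with DAO1 it was 1 of 2 members without overlap between the mutants, against 13.3% of all genes, or 6.16% for genes lower in tmk1. For DFL2 the difference between the mutants was -0.06, with a 95% interval of -0.36 to 0.25, and for GH3.17 it was -0.11, with an interval of -0.83 to 0.61.

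Further genes of auxin inactivation and release came from lists of known enzymes, and none of them passed in any of the 3 comparisons (limma, adjusted p under 0.05). Of 10 other GH3 family genes 4 were measured, of 6 genes of other IAA oxidation, glucosylation and methylation 3, and of 7 hydrolases that release IAA from conjugates 5. Median log2 fold changes in tmk1 and iaa32iaa34 against WT were 0.03 and -0.01 for the other GH3 genes and -0.02 and 0.28 for the genes of oxidation, glucosylation and methylation, where all genes had -0.063 and -0.058. ILR1, a hydrolase that frees IAA from amino acid conjugates and so opposes the GH3 enzymes, had 9.99, 9.92 and 9.70 CPM in tmk1, 9.37, 15.5 and 10.11 CPM in iaa32iaa34, and 23.4, 18.9 and 19.4 CPM in WT. All 6 mutant libraries lay below WT, and the ratio of means was 0.48 in tmk1 and 0.57 in iaa32iaa34. Over all genes 18.9% lay below WT without overlap in tmk1 and 14.6% in iaa32iaa34, and the share in both was not computed. The log2 fold change of ILR1 was -0.98 ± 0.19 in tmk1 (limma, adjusted p = 0.0628) and -0.79 ± 0.19 in iaa32iaa34 (limma, adjusted p = 0.136). Under the replicate block ILR1 passed in tmk1 (limma, adjusted p = 0.0454, in a range over 19 alternatives of 0.0135 to 0.242, of which 5 passed). In iaa32iaa34 it passed without iaa32iaa34 replicate 2 (limma, adjusted p = 0.0149, in a range over 18 alternatives of 0.0149 to 0.406). All 5 measured hydrolases had negative log2 fold changes in tmk1, with a median of -0.18, and in iaa32iaa34 3 of 5 did, with a median of -0.07. Over all genes 58.0% were negative in tmk1 and 58.2% in iaa32iaa34. Between the mutants the smallest p of the hydrolases was that of ILL6, at -0.34 ± 0.22 (limma, adjusted p = 0.71).

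AT5G13370, annotated as a GH3 family gene, had 56.6, 45.0 and 63.7 CPM in tmk1, 59.2, 45.0 and 45.8 CPM in iaa32iaa34, and 32.8, 28.6 and 17.3 CPM in WT. Over all genes 11.5% lay above WT without overlap in tmk1 and 6.54% in iaa32iaa34. For AT5G13370 both mutants did, with ratios of means of 2.1 and 1.91. Both are set against the same WT libraries, and the share of all genes above WT in both was not computed. Its log2 fold change in tmk1 was 1.07 ± 0.23 (limma, adjusted p = 0.0703, and 0.047 with the replicate block, in a range over 19 alternatives of 0.031 to 0.242). In iaa32iaa34 it was 0.94 ± 0.23 (limma, adjusted p = 0.141). Its closest aligned paralogue, AT5G13360, had 21.0 ± 2.0 CPM in tmk1, 20.0 ± 2.8 CPM in iaa32iaa34 and 24.3 ± 1.4 CPM in WT. The coding sequences of AT5G13370 and AT5G13360 were 89.4% identical over 1785 aligned bases, so the division of reads between them is uncertain. AT1G48660, another GH3 family gene, had the smallest p of the other GH3 genes between the mutants, at 0.25 ± 0.26 (limma, adjusted p = 0.812).

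AT1G14120, annotated as a 2-oxoglutarate and Fe(II)-dependent oxygenase like DAO1, shared 83.2% of 920 aligned coding bases with it. It had 34.9, 50.1 and 37.6 CPM in tmk1, 52.4, 44.5 and 58.1 CPM in iaa32iaa34, and 28.1, 28.2 and 32.7 CPM in WT. All 6 mutant libraries lay above WT, whereas DAO1 did not. The shares of all genes above WT without overlap were 11.5% in tmk1 and 6.54% in iaa32iaa34. The share in both, against the same WT libraries, was not computed. The log2 fold change of AT1G14120 was 0.44 ± 0.17 in tmk1 (limma, adjusted p = 0.169) and 0.78 ± 0.17 in iaa32iaa34 (limma, adjusted p = 0.133). Between the mutants it was -0.34 ± 0.17 (limma, adjusted p = 0.62). It passed in iaa32iaa34 without replicate 2 (limma, adjusted p = 0.031, in a range over 18 alternatives of 0.031 to 0.37). Per kb of exon it stood at 31.2 ± 6.2 CPM in tmk1, 39.4 ± 5.2 in iaa32iaa34 and 22.6 ± 2.0 in WT, above DAO1 at 4.70, 5.98 and 6.01 CPM per kb. Among the members the closest pairs were GH3.5 and DFL1, with 84.1% identity over 1839 aligned coding bases, and GH3.2 and GH3.3, with 81.4% over 1782, and the longest identical runs of these pairs were 42 and 56 bases.

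**Figure D5:**
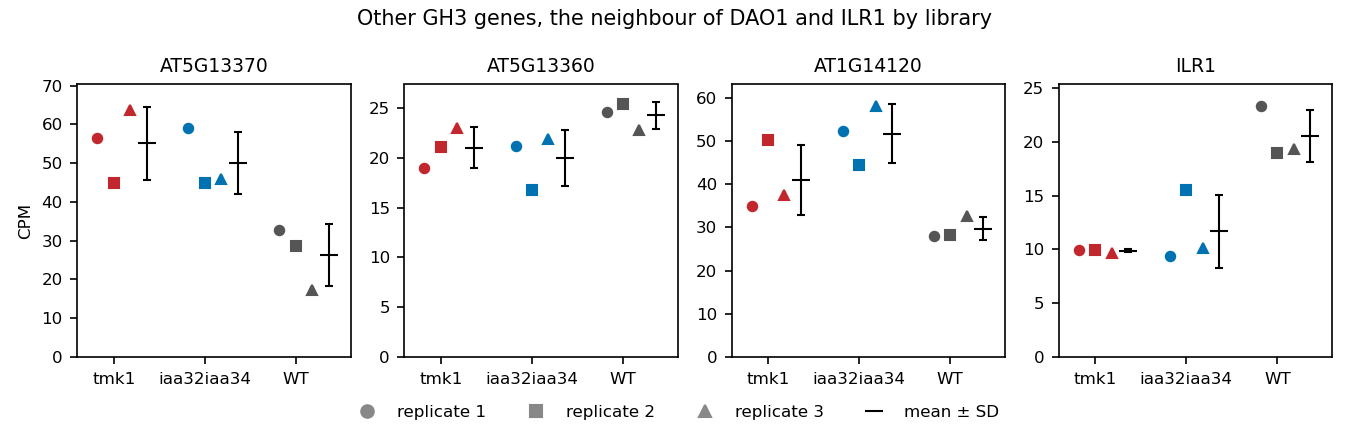
Levels (CPM, each axis from 0) of AT5G13370, AT5G13360, AT1G14120 and ILR1 in each library (symbols by replicate number) with mean ± SD of 3 libraries. AT5G13370 and AT1G14120 lie above WT and ILR1 below WT in all 6 mutant libraries, with ILR1 at 9.37 to 15.5 CPM against 18.9 to 23.4 CPM.

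All 6 listed auxin response factors that are known to activate auxin-induced genes, or, for ARF17, to bear on GH3 levels, were measured, and none passed. ARF6 had the smallest p in both mutants, with log2 fold changes of -0.44 ± 0.20 in tmk1 (limma, adjusted p = 0.234) and -0.51 ± 0.20 in iaa32iaa34 (limma, adjusted p = 0.253). The medians of this list were -0.07 and -0.11, and between the mutants ARF5 had its smallest p, at -0.12 ± 0.17 (limma, adjusted p = 0.867). Beside JAR1, all 3 listed cytochrome P450 genes that oxidise its product were measured. Of these CYP94C1 had the smallest p in tmk1, at -0.48 ± 0.25 (limma, adjusted p = 0.303), and CYP94B1 in iaa32iaa34, at 0.23 ± 0.19 (limma, adjusted p = 0.563). Their medians were -0.02 and 0.23, and CYP94C1 also had the smallest p between the mutants, at -0.66 ± 0.25 (limma, adjusted p = 0.562).

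Likeness of pattern was measured over all 9 libraries as the root mean square difference between genes in log2(CPM + 1), each taken from its own mean, among 6680 genes with a symbol and a mean of at least 3 CPM. The profile of DFL2 was nearest to those of NRAMP3, a vacuolar metal transporter gene (0.057), QC (0.071) and MGP2 (0.106), where the median gene differed by 0.361. NRAMP3 averaged 14.3 CPM in tmk1, 14.9 CPM in iaa32iaa34 and 22.8 CPM in WT. GH3.5 was nearest to ICS2, an isochorismate synthase gene (0.109), RUL1 (0.113) and IAA13, an Aux/IAA gene (0.114), with a median gene at 0.384. GH3.3 was nearest to TPS8, of the trehalose phosphate synthase family (0.249), its own paralogue GH3.2 (0.266) and ARF11, an auxin response factor gene (0.274), with a median gene at 0.572. These are descriptions and carry no test.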

How the data were processed

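The authors deposited 1 table of CPM values (reads per gene scaled to library size) for 16383 genes in 9 libraries. Per the submitters' processing notes the tools were HISAT and HTSeq. Which build and annotation they used, and whether counting used strand, is not given in the sources used here, so no coordinates are printed and the division of reads among similar genes is uncertain. The table holds genes above a CPM of 1 in 3 or more libraries. Within a column, values fell on multiples of a single step within 0.01 read. The steps gave the library totals; 3 reads were worth 0.221 to 0.298 CPM.

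Values were analysed as log2(CPM + 1) with limma 3.58.1 in R 4.3.3, with all 9 libraries in 1 linear model, a mean-variance trend and two-sided tests. P-values were adjusted by Benjamini-Hochberg over all 16383 genes, with a threshold of 0.05. The filter, CPM of 1 or more in 3 libraries, therefore removed 0 genes. With the pseudocount of 1, fold changes of low genes are understated. The error given with a CPM is the SD, that with a log2 fold change the SE. The labels describe biological triplicates.

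Members and lists were chosen with earlier results of these data known. Named genes were all members, the gene with the smallest p in each list, and, for the 3 members with the largest moderated t, the 3 genes with the nearest profile. AT5G13360 and the genes of the paralogue comparison were named after their values were seen, as was the alternative with the replicate block in tmk1 and WT only. The main fit had no replicate block and did not pair libraries. Deviations of same-numbered tmk1 and WT libraries were positively correlated (r = 0.528, 0.129 and 0.14 across genes). On that basis they were joined by number in the alternatives with the replicate block only. This basis is weak, since tmk1 replicate 2 deviated more with WT replicate 3 (r = 0.304). The library titles give replicate numbers only. Those of iaa32iaa34 and WT (0.348, -0.398 and 0.459) and of the mutants (0.364, -0.141 and 0.123) each included a negative value. The block is therefore given for tmk1 against WT, beside the results whose call it changed. In the fit of all 9 libraries it also joined the iaa32iaa34 libraries by number. Gene names, gene lengths, coding sequences and upstream windows came from RefSeq TAIR10.1 by gene identifier, in which 16240 of the identifiers were found. Coding sequences were aligned globally with Biopython 1.88.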

Additional observations from a re-analysis of the deposited data

How the results depend on the processing

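Counts of genes past the threshold were unstable, and the estimate of spread is shared by all genotypes. The 52 genes of tmk1 against WT became 31 with a pseudocount of 0.25, 10 among genes with a mean of at least 10 CPM, 31 and 32 with median-of-ratios and TMM scaling, 620 with only the 2 genotypes compared, 323 with the replicate block, 1422 with the replicate block and only tmk1 and WT, and 6 to 704 with 1 library left out, moving over 1.5 times for each library. The 25 genes of iaa32iaa34 against WT became 6 among genes with a mean of at least 10 CPM, 12 with only the 2 genotypes and 11 with the replicate block, and 5 to 645 with 1 library left out, moving over 1.5 times for each library except tmk1 replicate 2. The 9 genes of tmk1 against iaa32iaa34 became 3 with only the 2 genotypes and 3 to 8 with 1 library left out, moving over 1.5 times without tmk1 replicate 1 or 3 or iaa32iaa34 replicate 2 or 3. The cause was not tested.

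Members past the threshold in tmk1 were 0, and 1 with only the 2 genotypes, 2 with the replicate block and only tmk1 and WT, and 0 to 1 with 1 library left out. In iaa32iaa34 they were 0 to 3 with 1 library left out. The replicate block in the fit of all libraries changed no call of a member.

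Signs turned only for values near 0 or of wide error. JAR1 in tmk1 was 0.014 and 0.005 with median-of-ratios and TMM scaling, and -0.117 to 0.009 with 1 library left out. DAO1 in iaa32iaa34 was 0.056 and 0.061 with these scalings, and -0.056 to 0.028 with 1 library left out. With 1 library left out GH3.1 in tmk1 was -0.859 to 0.024 and GH3.2 in tmk1 -0.081 to 0.572, and between the mutants GH3.1 was -0.542 to 0.342, GH3.17 -0.527 to 0.121 and DFL2 -0.124 to 0.046. A count-based test, planned as an alternative, was not run, and read numbers taken from the CPM steps were used to describe depth only.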
